A study of Mus musculus with 4 samples.

Results

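Chemokines are small secreted proteins that direct the movement of leukocytes, which sense them through receptors on their surface. The 9 genes described here were taken by symbol from the 31053 genes of the deposited matrices, and all 9 were found: the CXC ligands Cxcl9, Cxcl10 and Cxcl16, the CC ligands Ccl3, Ccl4 and Ccl5, and the receptors Cxcr3, Cxcr6 and Ccr7. Cxcl9 and Cxcl10 are ligands of Cxcr3 and are induced by interferons. Cxcl16 is made as a membrane-bound protein, can be shed, and is the ligand of Cxcr6, a receptor of activated and tissue-resident T cells and of innate lymphocytes. Activated lymphocytes and myeloid cells release Ccl3, Ccl4 and Ccl5. Ccr7 guides naive and central memory T cells, B cells and migrating dendritic cells toward lymph nodes. On GRCm38, by GENCODE M21, Ccl5 (chr11:83525778-83530518, minus strand), Ccl3 (chr11:83647844-83649355, minus) and Ccl4 (chr11:83662584-83664683, plus) lie close together, Cxcl16 (chr11:70453983-70459984, minus) and Ccr7 (chr11:99144196-99155077, minus) elsewhere on chromosome 11, Cxcr6 at chr9:123806475-123811760 (plus) and Cxcr3 at chrX:101731535-101734269 (minus). On the opposite strand Cxcl10 overlaps Art3, Cxcl16 overlaps Zmynd15 and Cxcr6 overlaps Fyco1.

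The cells came from the submandibular gland, a major salivary gland, of female C57BL6/J mice, and were profiled as single cells on the 10x Genomics platform. In the deligated group (libraries D1 and D2, mice of 14 weeks) a metal clip had closed the main ducts for 14 days and had been off for 5 days at harvest. The homeostatic group (H1 and H2, mice of 12 weeks) had no surgery. All 4 suspensions had been depleted of EpCAM-positive and Ter119-positive cells with beads and of dead cells, which enriched them for stroma and leukocytes. The protocol names sublingual glands as well as submandibular ones and does not say how many animals gave a library, so p-values measure only the spread between these libraries, which may be technical. Age and the version of the counting software differed between the groups together with the surgery, and their parts in a difference cannot be told apart.

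The libraries held 4725, 8713, 12854 and 13266 cell barcodes (D1, D2, H1, H2) and 35662241 to 53898793 UMIs, the molecule counts of this assay. Pairs of libraries shared at most 0.482% of the barcodes of the smaller one. Clusters were named from marker genes, with the 9 genes kept out of the clustering. T cell-like cells made up 13.8% and 10.1% of the retained cells in D1 and D2 and 1.94% and 1.95% in H1 and H2, and NK/innate lymphoid-like cells 20.9% and 26.9% against 8.99% and 9.05%. That these shares were higher after deligation was known before they were tested, so the test describes a known difference. In edgeR's quasi-likelihood test on cell counts the T cell-like share rose by a log2 ratio of 2.62 (SE 0.25, adjusted p = 0.000501) and the NK/innate lymphoid-like share by 1.41 (SE 0.22, adjusted p = 0.00255). The second call was lost without H1 (adjusted p = 0.149) or H2 (adjusted p = 0.144). Macrophage-like cells fell from 9.03% and 8.84% to 0.872% and 1.32%. Epithelial-like cells, which the beads target, numbered 54, 149, 3391 and 3678 in D1, D2, H1 and H2. With epithelial-like, erythroid-like and unnamed cells left out, the T cell-like share still rose by 1.86 (adjusted p = 0.00302) and the NK/innate lymphoid-like share by 0.66 (adjusted p = 0.0419). At a finer clustering 449, 260, 94 and 90 cells carried the T cell-like name (D1, D2, H1, H2), against 602, 787, 206 and 212 here. The T cell-like share rose by 2.99 (adjusted p = 0.0194) there.

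Within the lymphoid classes the clusters were nearly all of 1 group. The T cell-like class was made of clusters 7 and 26 in the deligated libraries and of cluster 21 in the homeostatic ones, and the NK/innate lymphoid-like class mainly of clusters 3, 16 and 34 against cluster 5. The T cell-like class held UMIs of all 8 T cell markers and all 8 NK markers in each library, and its makeup differed. Cd3e, a chain of the T cell receptor complex, stood at 808 and 746 CPM in D1 and D2 and at 366 and 365 CPM in H1 and H2. Ncr1, a receptor of NK and innate lymphoid cells, stood at 69.4 and 129 CPM against 306 and 287 CPM, so the homeostatic class carried more of it. Here CPM is a gene's UMIs per 1000000 UMIs of all cells of a class in a library.

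A gene is said to be called, or to have risen or fallen, where edgeR's quasi-likelihood test on the summed counts gave a Benjamini-Hochberg adjusted p under 0.05 over all genes tested. Fold changes are deligated against homeostatic on the log2 scale. A fit without D1 has D2 alone on its side and takes its spread from H1 and H2 only, and likewise for each other library left out. Calls gained or lost in such fits carry little weight. Over the sum of all retained cells 4 of the 9 genes were called, where 55% of all 16792 genes tested were called, 24.7% higher and 30.3% lower. Cxcr6 stood at 98.7 and 125 CPM in D1 and D2 and at 36.4 and 42.5 CPM in H1 and H2, a rise of 1.37 (SE 0.14, adjusted p = 0.00120). Ccl5 rose by 1.13 (SE 0.23, adjusted p = 0.0114) and Cxcr3 by 1.06 (SE 0.17, adjusted p = 0.00496). Cxcl16 fell by 1.43 (SE 0.13, adjusted p = 0.000893), from 65.9 and 64.6 to 23.3 and 29.96 CPM. The other 5 did not pass: Ccr7 (1.24, SE 0.60, adjusted p = 0.132), Cxcl9 (-0.58, SE 0.36, adjusted p = 0.218), Cxcl10 (-0.13), Ccl3 (-0.12) and Ccl4 (0.02). Without D1 the last 3 were called higher and without D2 lower, and Ccr7 was called in DESeq2 (1.25) and without D2 (1.92) and Cxcl9 without H2 (-1.02). Cxcl9 was 0.043 without H1 and -1.41 (adjusted p = 0.145) without epithelial-like, erythroid-like and unnamed cells. In such a sum fewer cells of a type and less RNA per cell cannot be told apart, so levels within classes follow.

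**Figure D1:**
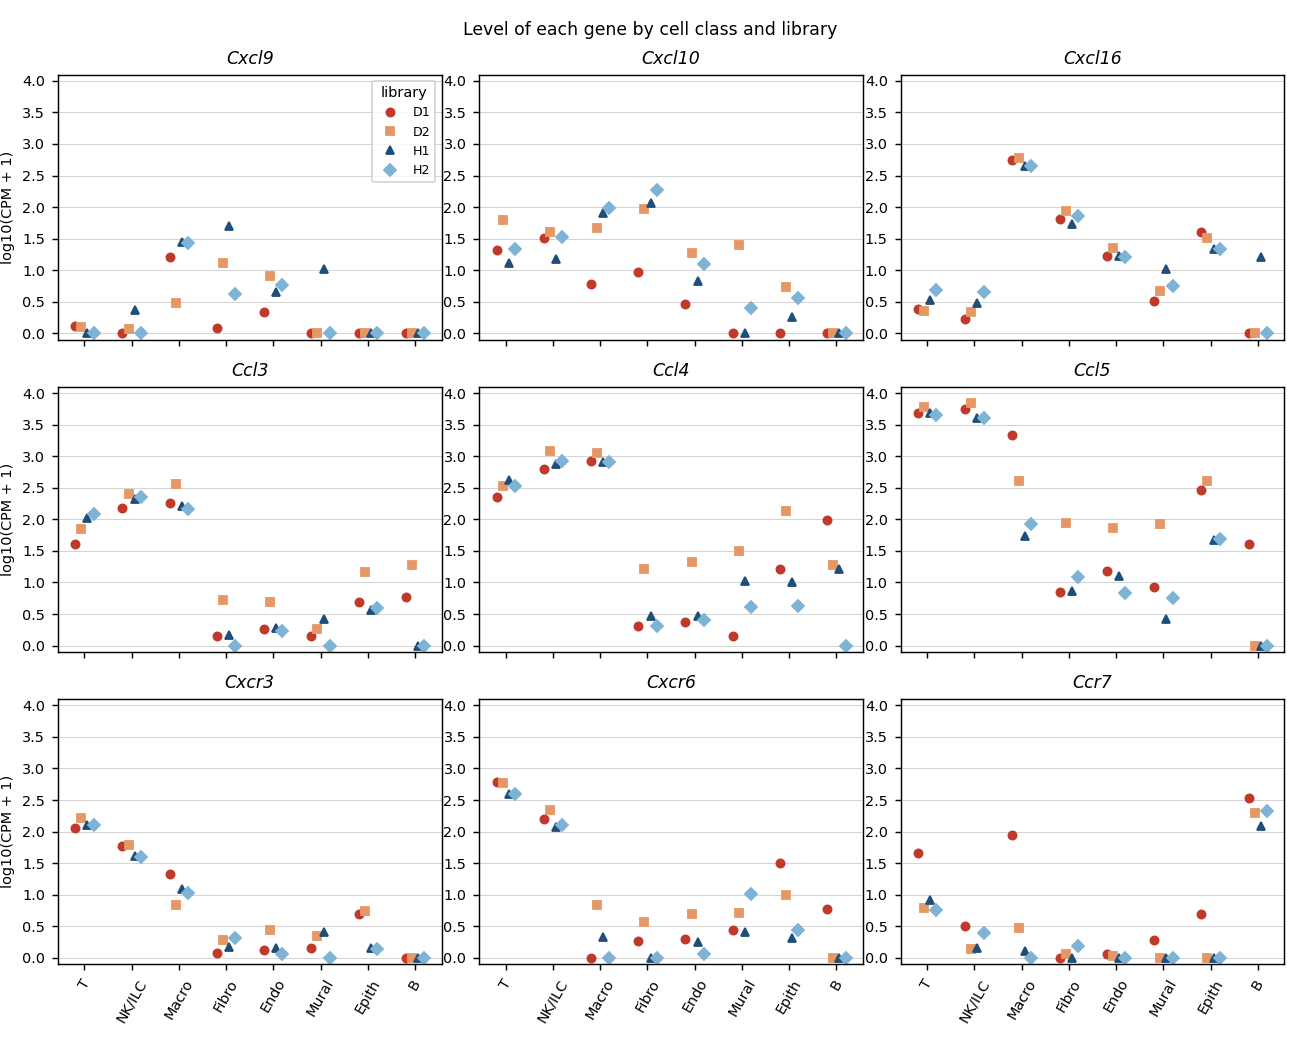
Level of each gene in 8 cell classes, as log10(CPM + 1) on the vertical axis, with 1 point per library (D1 and D2 deligated, H1 and H2 homeostatic). Cxcl16 stands highest in macrophage-like cells, at 563 and 595 CPM in D1 and D2 and 447 and 442 CPM in H1 and H2, and Cxcr6 stands highest in T cell-like cells.

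Cxcl16 was held mainly by macrophage-like cells in the homeostatic libraries and mainly by fibroblast-like and endothelial-like cells in the deligated ones. In macrophage-like cells it stood at 563 and 595 CPM in D1 and D2 and at 447 and 442 CPM in H1 and H2, and with every cell thinned to 1000 UMIs a Cxcl16 UMI was found in 48.4% and 51.8% against 35.5% and 33.2% of them. Both deligated libraries lay above both homeostatic ones, and the fitted change was not called (0.39, SE 0.14, adjusted p = 0.0672). It was just under the threshold with doublets kept (0.43, adjusted p = 0.0455), with the 9 genes in the clustering (0.50, 0.0464), with the stricter filter (0.45, 0.0428), on thinned sums (0.62, 0.0492) and without D1 (0.39, 0.0299). It was 0.12 (adjusted p = 0.675) with the intron trend removed and 0.25 (0.524) at the finer clustering. That class held only 38 cells in D1 and was tested with a minimum lowered to 30 cells per library, a choice made after the class sizes were seen. In D1 it held 23 cells at the finer clustering and 26 with the stricter filter, under that minimum, and both were fitted all the same.

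Fibroblast-like cells had 63.3 and 86.2 CPM of Cxcl16 against 53.8 and 72.1 CPM, which overlap (0.31, SE 0.19, adjusted p = 0.264). Endothelial-like cells had 16.0 and 21.9 CPM against 15.7 and 15.1 CPM (0.32, SE 0.14, adjusted p = 0.133). Without D1, with D2 as the only deligated library and the spread taken from H1 and H2, the values were 0.49 and 0.48. Macrophage-like cells held 56.6% and 53.7% of all Cxcl16 UMIs in H1 and H2 and 14.6% and 21.7% in D1 and D2. Unnamed cells held another 27.2% and 27.7% in H1 and H2 and 12.0% and 7.70% in D1 and D2. Cluster 23 alone, which had 131 and 153 cells in H1 and H2 and stayed unnamed because haemoglobin genes led a cluster with macrophage markers, held 19.8% and 23.01% there. In D1 and D2 fibroblast-like cells held 39.7% and 39.9% and endothelial-like cells 30.5% and 27.1%. The fitted change within each of these 3 classes was above 0, while the level over all cells fell. In NK/innate lymphoid-like cells Cxcl16 was called lower (-1.40, SE 0.47, adjusted p = 0.0404) from 4, 15, 13 and 24 UMIs, and the call was lost in DESeq2 (adjusted p = 0.262), without a filter on low counts (0.110) and without D1 (0.0798), H1 (0.0817) or H2 (0.451). The 8 macrophage markers summed to 5.23 and 20.8 CPM in D1 and D2 and 53.2 and 25.6 CPM in H1 and H2 in the same cells, and their part in the result was not tested.

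**Figure D2:**
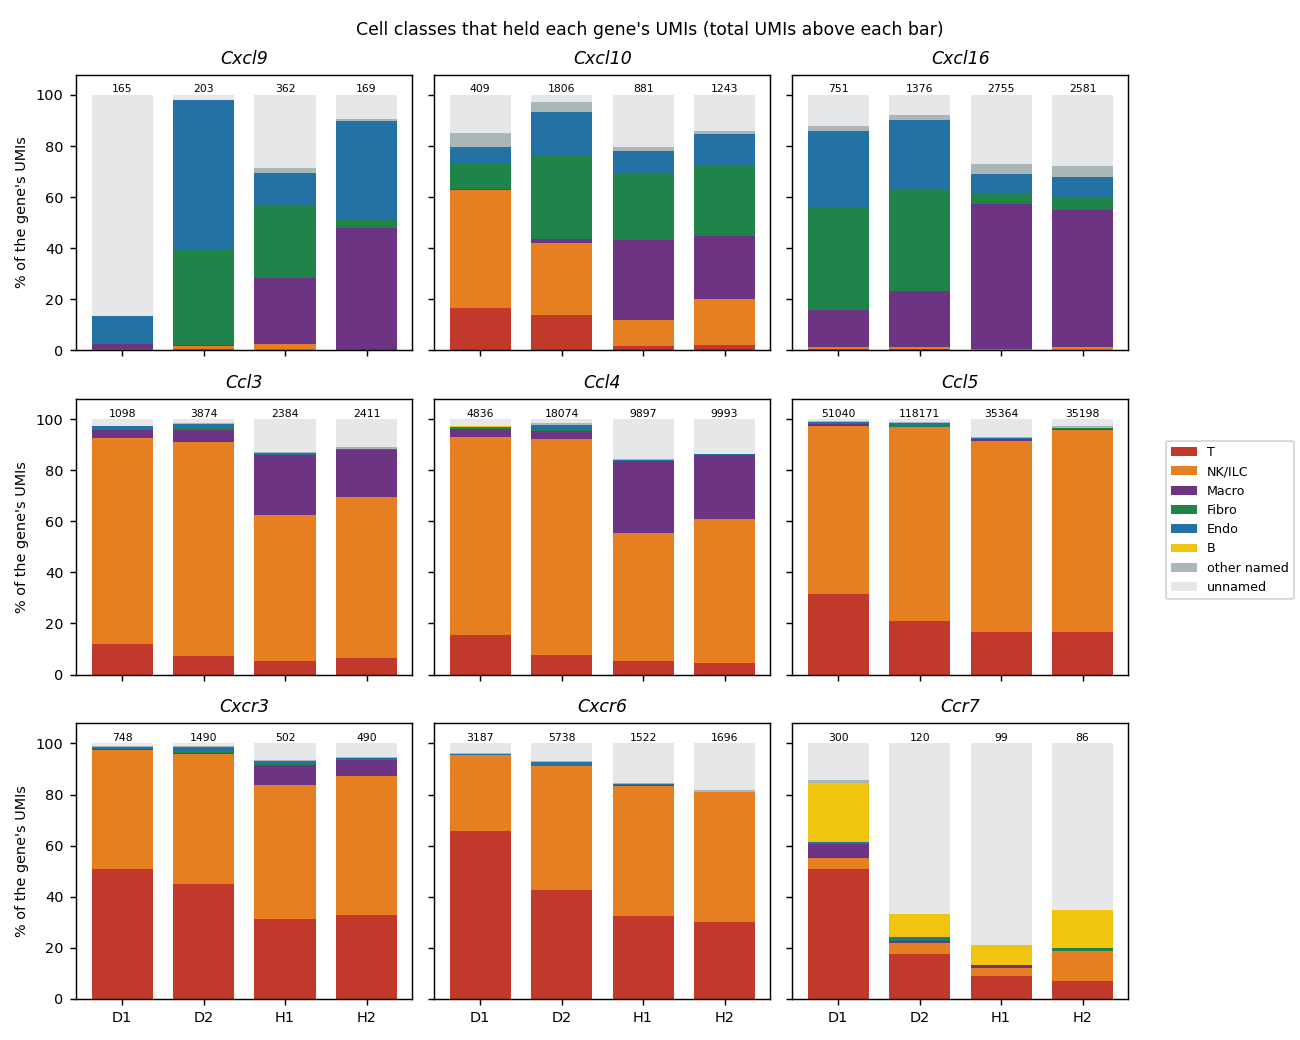
Share of each gene's UMIs held by each cell class (vertical axis, percent) in the 4 libraries, with the gene's total UMIs above each bar. For Cxcl16 the macrophage-like share is 56.6% and 53.7% in H1 and H2 and 14.6% and 21.7% in D1 and D2, and for Ccr7 the T cell-like share is 50.7% in D1 and 17.5% in D2.

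Cxcl9 and Cxcl10 lie near each other on the minus strand of chromosome 5, at chr5:92321347-92328079 and chr5:92346638-92348889 (GRCm38). Their starts are shown because they are the interferon-induced ligands of the set. The RefSeq windows (GRCm38.p6) are the 250 bases before each start, chr5:92328080-92328329 and chr5:92348890-92349139, printed on the minus strand. Capitals mark matches on either strand to TTTC, any 2 bases and TTTC (ISRE, an interferon-stimulated response element), TTCNNNGAA (GAS, bound by STAT factors), GGGA, any base and TTTCC (a narrow form of the NF-kappaB site), AGGTGTGA (a T-box site) or TGTGGT (a Runx site). Other forms of these sites were not searched, so a stretch in lower case may still hold such a site.
Cxcl9: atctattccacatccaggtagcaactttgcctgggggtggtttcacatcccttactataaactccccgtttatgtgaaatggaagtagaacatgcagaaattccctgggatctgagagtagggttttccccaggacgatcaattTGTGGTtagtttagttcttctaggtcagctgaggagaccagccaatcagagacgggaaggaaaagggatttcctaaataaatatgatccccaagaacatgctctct
Cxcl10: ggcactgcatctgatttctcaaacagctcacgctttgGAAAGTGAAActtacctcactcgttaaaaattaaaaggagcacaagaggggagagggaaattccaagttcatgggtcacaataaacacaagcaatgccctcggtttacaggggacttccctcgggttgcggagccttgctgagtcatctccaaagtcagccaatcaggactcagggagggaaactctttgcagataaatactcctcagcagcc
The Cxcl10 window holds an ISRE match 213 to 204 bases before the start and the Cxcl9 window a Runx match 106 to 101 bases before it. Of 32851 windows of this length, 2.98% hold the ISRE letters, 7.02% GAS, 0.356% NF-kappaB, 1.12% T-box and 14.0% Runx. Windows were found for 5 of the 9 genes.

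Cxcl9 gave 165 and 203 UMIs in D1 and D2 and 362 and 169 in H1 and H2, and few cells held them. In D1, 86.7% of them lay in unnamed cells, where 1 cell of cluster 40 carried them. Cluster 40 was led by Cd209a and Flt3 and tied between macrophage and dendritic markers. In D2 the endothelial-like cluster 1 held 113 of the 203 UMIs and the fibroblast-like cluster 9 held 76. In H1 all 102 fibroblast-like UMIs lay in 3 cells. Fibroblast-like cells stood at 0.212 and 11.9 CPM against 49.9 and 3.20 CPM, which overlap (-1.99, SE 0.98, adjusted p = 0.162; -1.16 without D1, -6.63 without D2 and, in the other direction, 1.00 without H1), and endothelial-like cells at 1.19 and 7.00 against 3.52 and 4.89 CPM (log2 change -0.01). Macrophage-like cells had 15.4 and 1.99 CPM against 26.7 and 25.8 CPM, and Cxcl9 fell by 2.18 (SE 0.61, adjusted p = 0.0240) there, on 3 and 1 UMIs in D1 and D2. It was not called in DESeq2 (adjusted p = 0.307), with a stricter cell filter (0.0610) or without D2, H1 or H2. The change ran from -8.49 at the finer clustering, which left 23 such cells in D1, to 3.23 with the 9 genes let into the clustering. It was -3.72 without D1.

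Cxcl10 was spread over more classes. NK/innate lymphoid-like cells stood at 31.9 and 40.04 CPM in D1 and D2 and at 13.9 and 32.5 CPM in H1 and H2 (0.71, SE 0.31, adjusted p = 0.0969). T cell-like cells stood at 20.1 and 61.0 against 12.1 and 20.8 CPM (1.43, SE 0.53, adjusted p = 0.0845). The groups overlap in both classes: D1 lay below H2 in each. The T cell-like value was called at the finer clustering (2.26, adjusted p = 0.00766), with the 9 genes in the clustering (1.74), without a count filter (1.48) and without D1 (2.00), and was 0.44 without D2. The NK/innate lymphoid-like value was called with doublets kept (1.25), on thinned sums (0.92) and without D1 (0.84) or H2 (1.48), and was 0.21 without H1 and 0.29 with the intron trend removed. NK/innate lymphoid-like cells, a larger share of all cells in D1 and D2, held 46.2% and 28.3% of the Cxcl10 UMIs in D1 and D2 and 10.3% and 17.8% in H1 and H2, and T cell-like cells 16.6% and 13.8% against 1.70% and 2.17%. In D2 fibroblast-like cells held more Cxcl10 UMIs than NK/innate lymphoid-like cells did. In H1 and H2 macrophage-like and fibroblast-like cells each held more than either lymphoid class.

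In macrophage-like cells Cxcl10 fell from 78.4 and 97.6 CPM to 5.12 and 45.8 CPM, by 1.37 (SE 0.37, adjusted p = 0.0185), on 1 and 23 UMIs in D1 and D2. It was not called in DESeq2 (adjusted p = 0.140) or on thinned sums (0.290), and was 0.12 with the 9 genes in the clustering, -2.17 at the finer clustering and -4.08 without D2. Fibroblast-like cells had 8.50 and 93.7 CPM against 113 and 184 CPM (-1.47, SE 0.67, adjusted p = 0.135), which was called without a count filter. The change was -0.63 without D1 and -4.01 without D2, fits whose spread comes from H1 and H2 alone. Single cells set much of that level: 1 cell held 80.3% of the fibroblast-like Cxcl10 UMIs in H2 and 44.1% in D2.

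Ccl5, a product of cytotoxic lymphocytes, rose in NK/innate lymphoid-like cells, which had 5671 and 7021 CPM in D1 and D2 and 4034 and 4080.1 CPM in H1 and H2. The groups did not overlap, and the rise was 0.72 (SE 0.10, adjusted p = 0.000530). It was called in every alternative run, over 0.44 to 0.90, and 0.44 (adjusted p = 0.00892) is the value with the trend of fold changes with intron length removed. Over all genes tested, Spearman's rho between fold change and intron length was -0.54 in NK/innate lymphoid-like and -0.57 in T cell-like cells, so genes with less intron sequence stood higher in the deligated libraries. At the intron length of Ccl5 the trend was worth 0.27 in NK/innate lymphoid-like cells. The counting software differed in version between the groups, how each version treated intronic reads is not given in the sources used here, and its part and the group's in this trend cannot be told apart. In this class 4 of 7 tested members were called and 3 of them were higher, where 44.1% of all genes were called, 17.4% higher and 26.7% lower. By cluster, the deligated cluster 3 stood at 7265 and 7829 CPM and cluster 16 at 3234 and 3878 CPM, and the homeostatic cluster 5 at 4204 and 4266 CPM.

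T cell-like cells had 4769 and 6073 CPM of Ccl5 in D1 and D2 against 4752 and 4545 CPM in H1 and H2, so D1 and H1 were nearly level. The fitted rise was 0.36 (SE 0.11, adjusted p = 0.0426). The call was lost without H1 or H2, in DESeq2 (adjusted p = 0.0969), at a finer clustering (0.222) and with the trend of fold changes with intron length removed (0.797). At the intron length of Ccl5 that trend was worth 0.30 in T cell-like cells, beside the fitted 0.36. The call was also lost in T cell-like cells with a Cd3d or Cd3e UMI and no Ncr1 UMI (adjusted p = 0.277). Cluster 26, led by Il17a, had only 515 and 371 CPM in D1 and D2 and lay almost wholly in these libraries. Leaving it out took low-Ccl5 cells from the deligated side, and the rise was then 0.67 (SE 0.11, adjusted p = 0.00116). As sources, NK/innate lymphoid-like cells held 65.8% and 76.0% of the Ccl5 UMIs in D1 and D2 and 74.9% and 78.8% in H1 and H2, and T cell-like cells 31.6% and 20.99% and 16.7% and 16.7%. The difference of the changes, T cell-like minus NK/innate lymphoid-like, was called (-0.33, SE 0.05, adjusted p = 0.0205), where 0.387% of genes were called, 0.101% higher and 0.286% lower. It was not called in DESeq2 or without H1 (adjusted p = 0.420) or H2 (0.163).

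Ccl3 and Ccl4 encode the macrophage inflammatory proteins MIP-1alpha and MIP-1beta and are neighbours on chromosome 11. In NK/innate lymphoid-like cells neither was called. Ccl3 stood at 149.6 and 254 CPM against 207 and 223 CPM (-0.01, SE 0.19, adjusted p = 0.959) and Ccl4 at 632 and 1197 CPM against 753 and 830.5 CPM (0.28, SE 0.23, adjusted p = 0.355). D1 was the lowest and D2 the highest of the 4 libraries for both genes. Without D2 Ccl3 was called lower (-0.42) and without D1 higher (0.30), and Ccl4 likewise (-0.22 and 0.65). NK/innate lymphoid-like cells held 77.4% and 84.7% of Ccl4 UMIs in D1 and D2 and 49.9% and 56.5% in H1 and H2, where macrophage-like cells held 28.4% and 25.1%.

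In macrophage-like cells Ccl3 stood at 179 and 358 CPM in D1 and D2 and 162 and 143 CPM in H1 and H2, with D2 far above the rest, and was called higher (0.95, SE 0.20, adjusted p = 0.00392). The call was lost in DESeq2 (adjusted p = 0.186), on thinned sums (0.108), with the intron trend removed (0.0599) and without D2 (log2 change 0.24) or H2. At the finer clustering the value was -1.06. That clustering left 23 macrophage-like cells in D1, under the lowered minimum, and set a dendritic-like class apart. Ccl4 in the same cells had 825 and 1125 CPM against 808 and 801 CPM (0.30, SE 0.15, adjusted p = 0.193), and was called without D1 (0.45), with doublets kept (0.49) and, in the other direction, at the finer clustering (-2.23).

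In T cell-like cells Ccl3 stood at 39.0 and 69.5 CPM in D1 and D2 and at 103 and 120.3 CPM in H1 and H2, and fell by 0.90 (SE 0.25, adjusted p = 0.0305). The result depended on which cells were counted as T cells. With a Cd3d or Cd3e UMI and no Ncr1 UMI required, which left 513 and 571 cells in D1 and D2 and at most 109 in H1 and H2, the change was -0.18 (adjusted p = 0.673). At the finer clustering, with 449, 260, 94 and 90 T cell-like cells, it was 0.40 (adjusted p = 0.406). The call was also lost without H1 (adjusted p = 0.176) or H2 (0.267), with doublets kept (0.37, adjusted p = 0.552) and with the stricter filter (0.51, adjusted p = 0.313), and without D1 the change was -0.56. Ccl4 was -0.30 (adjusted p = 0.301) in all T cell-like cells, 0.70 (adjusted p = 0.0521) under the Cd3 and Ncr1 rule and was called at the finer clustering (1.13, adjusted p = 0.000695), with the stricter filter (1.32) and, lower, without D2 (-0.60).

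Lineage UMIs split the class in the same way. In cells with a Cd8 and no Cd4 UMI, Ccl4 stood at 407 and 494 CPM in D1 and D2 and at 231 and 227 CPM in H1 and H2, and Ccl5 at 8640 and 7859 against 5536 and 6048 CPM. Both genes were higher in both deligated libraries there. In the other cells the order of Ccl4 was the opposite, 138 and 310 against 524 and 421 CPM. These had neither lineage UMI, apart from 7 cells in D1 and 1 in D2 that had both. Cells with a Cd4 and no Cd8 UMI were few, 46 and 45 in D1 and D2 and 17 and 22 in H1 and H2, and held 17.4 and 72.1 and 40.2 and 57.5 CPM of Ccl4. The difference of the changes, T cell-like minus NK/innate lymphoid-like, was -0.85 for Ccl3 (adjusted p = 0.0162) and -0.50 for Ccl4 (adjusted p = 0.241), and both turned positive at the finer clustering (0.49, adjusted p = 0.723, and 0.89, adjusted p = 0.000561).

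**Figure D3:**
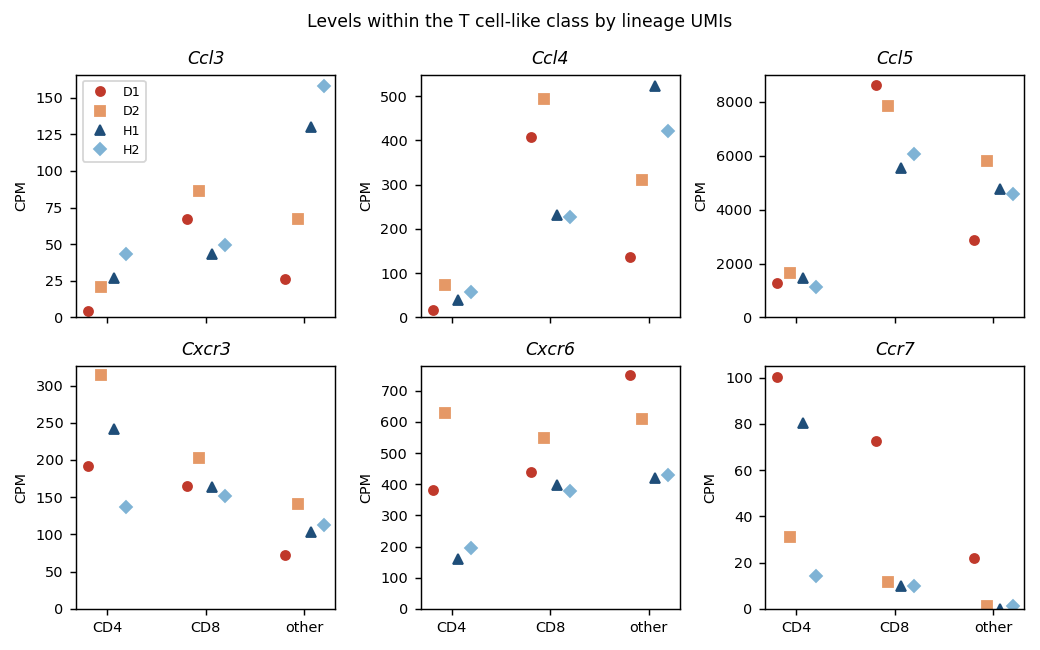
CPM of 6 genes (vertical axis) within the T cell-like class, split by lineage UMIs into CD4, CD8 and other cells, with 1 point per library. In CD8 cells Ccl4 is at 407 and 494 CPM in D1 and D2 and at 231 and 227 CPM in H1 and H2, and in the other cells the groups stand in the opposite order.

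Cxcr6, the receptor of Cxcl16, rose in both receiving classes. T cell-like cells had 618 and 597 CPM in D1 and D2 and 399 and 393 CPM in H1 and H2, with no overlap, a rise of 0.75 (SE 0.11, adjusted p = 0.00148). The NK/innate lymphoid-like sums stood at 159.6 and 219 CPM against 118 and 127 CPM, again with no overlap, a rise of 0.71 (SE 0.13, adjusted p = 0.00332) that was called in every alternative run and was 0.42 (adjusted p = 0.0411) with the intron trend removed. The difference of these changes was 0.10 (adjusted p = 0.895). In the T cell-like class 3 of 7 tested members were called, Cxcr6 and Ccl5 higher and Ccl3 lower, where 24.8% of all genes were called, 7.8% higher and 17% lower.

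The T cell-like rise of Cxcr6 was called under the Cd3 and Ncr1 rule (0.85, adjusted p = 0.00267) and at the finer clustering (0.95, adjusted p = 7.75e-05), and was 0.44 (adjusted p = 0.0303) with the intron trend removed. It missed the threshold without H1 (adjusted p = 0.0608) or H2 (0.0603). Cluster 26, led by Il17a, Cd163l1 and Trdv4, held 157 and 60 cells of D1 and D2 and 2 and 1 of H1 and H2, and its Cxcr6 level was 1095 and 1048 CPM in D1 and D2. Without it the change was 0.50 (adjusted p = 0.0194). Cluster 7 of the deligated libraries stood at 425 and 556 CPM and cluster 21 of the homeostatic ones at 399 and 393 CPM, so the levels of D1 and H1 lay close there.

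Among NK/innate lymphoid-like clusters the Cxcr6 level was uneven. Cluster 3 of the deligated libraries, led by genes such as Gzmb, Gzmc and Itgae, had 216 and 247 CPM, and cluster 16, with Eomes and Gzma among its leading genes, 8.06 and 36.2 CPM. The homeostatic cluster 5 had 119 and 131 CPM. Outside the named classes, cluster 30 of the homeostatic libraries had 441 and 656 CPM and cluster 31 of the deligated ones 396 and 504 CPM. Il1rl1 and Areg were among the leading genes of both, and neither met the rules for a name. Unnamed cells held 15.3% and 18.1% of the Cxcr6 UMIs in H1 and H2 and 3.64% and 6.67% in D1 and D2.

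Cxcr3, the receptor of Cxcl9 and Cxcl10, rose in NK/innate lymphoid-like cells, which had 58.6 and 59.6 CPM in D1 and D2 and 40.2 and 39.3 CPM in H1 and H2. The groups did not overlap, and the rise of 0.65 (SE 0.10, adjusted p = 0.00103) was called in every alternative run, over 0.33 to 0.85. The low end, 0.33 (adjusted p = 0.0347), is the value with the intron trend removed. Clusters 16 and 34 stood at 77.1 and 75.4 CPM and 161 and 198 CPM in D1 and D2, cluster 3 at 42.8 and 50.4 CPM, and the homeostatic cluster 5 at 38.7 and 39.8 CPM. T cell-like cells had 112 and 164 CPM in D1 and D2, on either side of 127 and 124 CPM in H1 and H2, and no call was made (0.27, SE 0.18, adjusted p = 0.306). Without cluster 26, in which Cxcr3 stood at 18.5 and 35.3 CPM, it was called (0.55, SE 0.14, adjusted p = 0.0114). That cluster lay almost wholly in D1 and D2, so leaving it out took low-Cxcr3 cells from the deligated side. Without D1 the change was 0.51. It was 0.04 under the Cd3 and Ncr1 rule and -0.10 at the finer clustering. The difference of the changes, T cell-like minus NK/innate lymphoid-like, was -0.33 (adjusted p = 0.620), and was called at the finer clustering (-0.77, adjusted p = 0.0295) and without D2 (-0.65, adjusted p = 0.0355).

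The window before the RefSeq start of Cxcr6 is shown because this gene rose in both lymphoid classes. It is chr9:123806227-123806476, on the plus strand, and its last 2 bases lie inside the gene as GENCODE gives it. Matches to the same 5 motifs are in capitals.
Cxcr6: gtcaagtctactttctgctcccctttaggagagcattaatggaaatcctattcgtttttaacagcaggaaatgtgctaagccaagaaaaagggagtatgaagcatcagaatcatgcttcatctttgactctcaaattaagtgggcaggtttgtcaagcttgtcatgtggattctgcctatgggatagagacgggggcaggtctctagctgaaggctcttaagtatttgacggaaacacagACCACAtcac
The window holds 1 Runx match, 10 to 5 bases before the RefSeq start, letters that 14.0% of all windows hold. The RefSeq start of Cxcr3 lies 122 bases inside the GENCODE gene, so its window overlaps that gene and is not printed.

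How often both receptors are seen in a cell depends on the depth. Before thinning a Cxcr6 UMI was found in 77.2% and 85.0% of T cell-like cells in D1 and D2 and 78.6% and 76.4% in H1 and H2, and a Cxcr3 UMI in 38.4% and 49.0% against 48.5% and 48.6%, shares too large for every cell to hold UMIs of only 1 of them. With each cell thinned to 1000 UMIs, Cxcr6 without Cxcr3 was found in 38.7%, 36.0%, 27.7% and 27.8% of T cell-like cells (D1, D2, H1, H2), Cxcr3 without Cxcr6 in 5.98%, 8.64%, 8.25% and 6.60%, and both in 4.98%, 6.73%, 5.34% and 4.72%. Cells with Cxcr6 only were more frequent in both deligated libraries, while the other shares overlapped between the groups. In NK/innate lymphoid-like cells the shares were 14.8%, 18.1%, 10.9% and 10.1% for Cxcr6 only, 5.49%, 4.23%, 2.83% and 3.44% for Cxcr3 only and 1.32%, 1.14%, 0.315% and 0.405% for both. All 3 were higher in both deligated libraries. The share with a Cxcr6 UMI differed between clusters. In D1, 68.2% of the 157 cells of the Il17a-led cluster 26 had one after thinning, against 35.1% of the 445 cells of cluster 7 (95% exact binomial interval 30.6 to 39.7%), which lies near the 32.8% and 33.0% of cluster 21 in H1 and H2. In D2 cluster 7 stood at 40.2% (36.6 to 43.8%). For any Cxcr6 UMI the thinned share of T cell-like cells was 43.7% in D1 (95% exact binomial interval 39.7 to 47.8%) and 33.0% in H1 (26.6 to 39.9%), intervals that cover counting error only. In fibroblast-like cells, which should lack the receptor, the thinned share was 0.0% and 0.439% in D1 and D2 and 0.0% and 0.0% in H1 and H2. Median UMIs per cell before thinning were 5158, 4906, 5442 and 5274 in T cell-like cells and 13234, 9278, 6820.5 and 6572 in fibroblast-like cells.

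**Figure D4:**
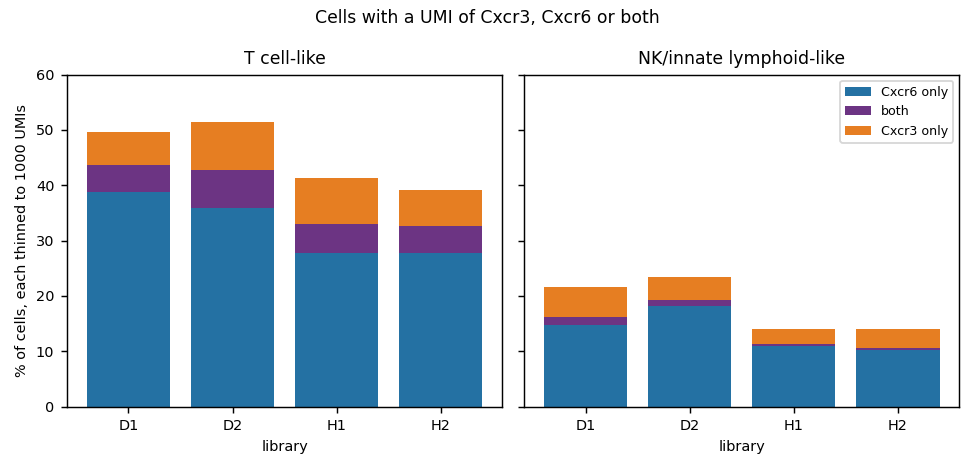
Percent of T cell-like (left) and NK/innate lymphoid-like (right) cells with a UMI of Cxcr6 only, of both receptors or of Cxcr3 only, after thinning each cell to 1000 UMIs, by library. Cells with Cxcr6 only make up 38.7%, 36.0%, 27.7% and 27.8% of T cell-like cells in D1, D2, H1 and H2.

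The lymphoid classes also differed from each other. In a fit of T cell-like against NK/innate lymphoid-like sums with the library as a block, Cxcr6 was higher in T cell-like cells by 1.71 (SE 0.08, adjusted p = 6.38e-08), Cxcr3 by 1.42 (SE 0.11, adjusted p = 2.56e-06) and Ccr7 by 3.65 (SE 0.39, adjusted p = 4.18e-05). Ccl3 (-1.44, SE 0.14, adjusted p = 2.73e-05) and Ccl4 (-1.36, SE 0.11, adjusted p = 5.53e-06) were lower in T cell-like cells. Ccl5 (-0.01), Cxcl10 (-0.01) and Cxcl16 (0.33) were not called, but at the finer clustering Ccl5 was called lower in T cell-like cells (-0.43, SE 0.09, adjusted p = 0.00101). So 5 of 8 tested members were called, where 20.2% of 11888 genes were, 10% higher and 10.1% lower, and these 5 calls held in every alternative run, with Ccl3 at -2.54 and Ccl4 at -2.20 at the finer clustering.

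Ccr7 UMIs lay mainly in unnamed cells in D2, H1 and H2 and in T cell-like cells in D1. T cell-like cells had 44.9 and 5.14 CPM in D1 and D2 and 7.26 and 4.63 CPM in H1 and H2, from 152, 21, 9 and 6 UMIs, and the change was not called (2.19, SE 1.01, adjusted p = 0.150). Without D2 it was called (3.08), as it was without a filter on low counts (2.23, adjusted p = 0.00105). Within D1 the level was 100.1 CPM in cells with a Cd4 UMI, 72.5 CPM in those with a Cd8 UMI and 22.2 CPM in the others. B cell-like cells, 59 in D1 and 16 to 18 in the other libraries, had 343 and 198 CPM in D1 and D2 and 124 and 209.9 CPM in H1 and H2. In D2, H1 and H2 unnamed cells held 66.7%, 78.8% and 65.1% of Ccr7 UMIs. Cluster 40, with 20, 18, 30 and 26 cells, stood at 257 and 472 CPM in D1 and D2 and 255 and 217 CPM in H1 and H2. The same cluster held Ccl5 at 2348 and 2854 and 4622 and 2689.7 CPM and Cxcl16 at 417 and 339 and 402 and 269 CPM.

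**Figure D5:**
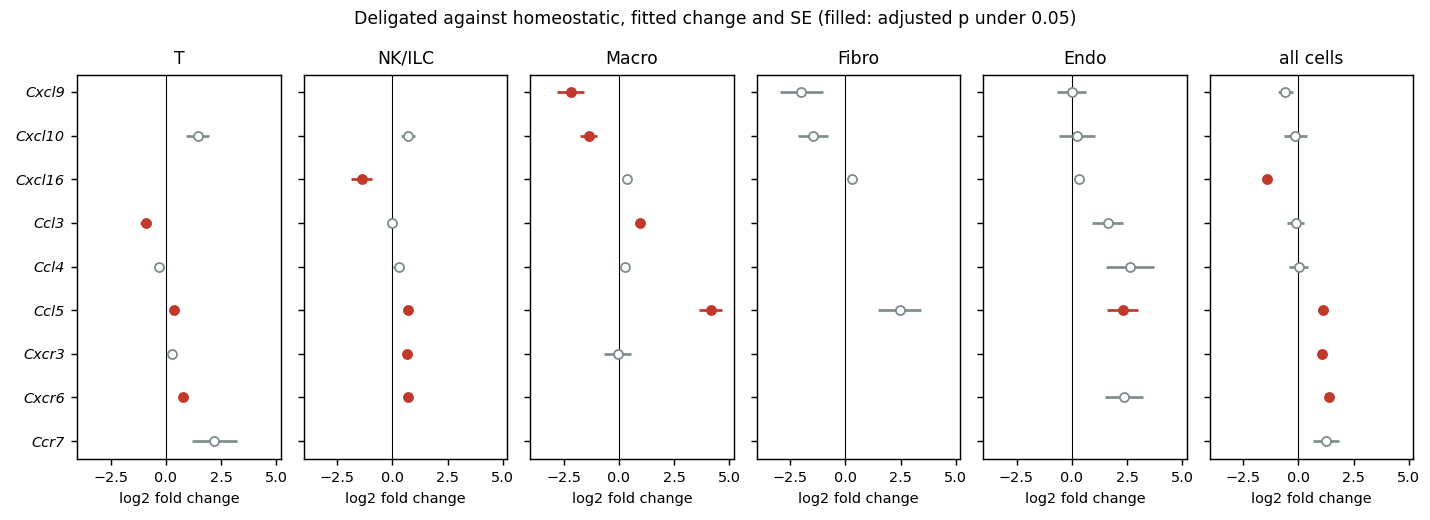
Fitted log2 fold change, deligated against homeostatic (horizontal axis), with its SE as the bar, for each gene that passed the filter on low counts in T cell-like, NK/innate lymphoid-like, macrophage-like, fibroblast-like and endothelial-like cells and in the sum of all cells. Filled points have an adjusted p under 0.05; Cxcr6 is filled in both lymphoid classes, at 0.75 and 0.71.

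Ccl5 and other lymphocyte genes also gave UMIs in classes named for other cells. In endothelial-like cells Ccl5 stood at 14.4 and 71.1 CPM in D1 and D2 and 11.5 and 5.87 CPM in H1 and H2, with D2 far above the others, and was called (2.30, SE 0.71, adjusted p = 0.0478), 1 of 7 tested members where 35.6% of genes were called, 13.2% higher and 22.5% lower. The call was lost in DESeq2 (adjusted p = 0.113), with a stricter cell filter (0.0516), with doublets kept (0.0641), with the intron trend removed (0.0697) and without H2 (0.105), and without D2 the rise was 0.81. In the same cells the 8 T cell markers summed to 6.07 and 28.1 against 3.88 and 2.33 CPM and the 8 NK markers to 8.51 and 29.0 against 3.81 and 2.86 CPM, with D2 again the highest. In fibroblast-like cells Ccl5 had 5.95 and 85.3 against 6.36 and 11.2 CPM (2.46, SE 0.99, adjusted p = 0.0943; -0.43 without D2, and called at 3.32 without D1 and 1.98 with doublets kept), and the T cell markers summed to 6.80 and 16.5 against 1.47 and 0.0 CPM. There edgeR called 0 of 4 tested members, where 26.7% of genes were called, 8.61% higher and 18.1% lower. Of the 4, 1, Ccl5, had an unadjusted p under 0.05, and DESeq2 also called 0.

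Mural-like cells had 7.55 and 83.6 against 1.61 and 4.60 CPM of Ccl5 (3.79, SE 1.38, adjusted p = 0.140; called with doublets kept, at 1.80, and without D1, at 4.64), and 0 of 2 tested members were called by edgeR, where 8.03% of genes were, 1.17% higher and 6.87% lower. Of these 2, 1, Ccl5, had an unadjusted p under 0.05, and DESeq2 also called 0. In epithelial-like cells 2 of 4 tested members were called, where 5.04% of genes were, 4.09% higher and 0.957% lower: Ccl5, with 288 and 407 against 45.2 and 47.0 CPM (2.47, SE 0.36, adjusted p = 0.00883), and Cxcr6, with 31.1 and 9.04 against 1.03 and 1.73 CPM (3.40, SE 0.71, adjusted p = 0.0308). The Ccl5 call was lost with the stricter cell filter (adjusted p = 0.272) and without H1 (0.246) or H2 (0.143). That of Cxcr6 was lost with the stricter filter (adjusted p = 0.0778) and without D1 (0.428), and Cxcr6 did not pass the count filter on thinned sums or without H1 or H2. The stricter filter left 24 epithelial-like cells in D1, under the minimum set for a class in each library, and was fitted all the same. With the main filter, 1 epithelial-like cell held 97.3% of the Ccl5 UMIs in D1, and in D2 1 held 66.7%. The NK markers summed to 229 and 145 against 14.3 and 13.1 CPM in this class. In macrophage-like cells 4 of 7 tested members were called, where 16.1% of genes were, 4.69% higher and 11.4% lower. Ccl5 had 2198 and 406 against 54.0 and 82.3 CPM there (4.16, SE 0.52, adjusted p = 6.56e-05; 2.55 without D1), 1 cell held 66.4% of the UMIs in D1, and the NK markers summed to 35.9 and 61.7 against 28.7 and 30.9 CPM. The part of lymphocyte RNA in these values was not tested.

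The other chemokines moved unevenly, and their counts stand beside the shares of all genes called in each class. Of 30 further chemokines, 7 could be tested in NK/innate lymphoid-like cells, of which 2 rose and 1 fell (median 0.05, over all genes 0.01; 44.1% of all genes were called), and 6 in T cell-like cells, of which 2 rose (median -0.47, over all genes 0.03; 24.8% called). Cxcl14 (3.25 and 3.09) and the stromal chemokine Cxcl12 (2.13 and 2.79) were called higher in both classes, and Cxcl17, a chemokine of mucosal epithelium, lower in NK/innate lymphoid-like cells (-3.41). Markers of the cells known for these genes moved the same way. The 6 fibroblast markers summed to 41.2 and 113 CPM in D1 and D2 and 5.64 and 6.32 CPM in H1 and H2 in NK/innate lymphoid-like cells, and to 43.4 and 138 against 8.06 and 13.9 CPM in T cell-like ones, where Col1a1 was at 0 in H1 and H2. Fibroblast-like cells made up 8.01% and 8.74% of the cells in D1 and D2 and 2.81% and 2.61% in H1 and H2. The 10 epithelial markers summed to 124 and 173 against 223 and 228 CPM in NK/innate lymphoid-like cells and to 2.23 and 4.41 against 52.0 and 67.7 CPM in endothelial-like cells. The part of RNA from these cells in the 3 genes was not tested. In endothelial-like cells 4 of 12 rose and 1 fell (median 0.89, where 35.6% of all genes were called), led by Cxcl17 (-3.49), Ccl21a, a ligand of Ccr7 (3.0), and Cxcl14 (2.93). In macrophage-like cells 3 of 13 rose (median 0.08, where 4.69% of all genes were called higher), the neutrophil attractants Cxcl1 (4.02) and Cxcl2 (1.51) and Cxcl12 (1.46). In the same cells 12 of 18 immediate early genes were higher and 1 lower (median 0.80), and their part in the values of Cxcl1, Cxcl2 and Ccl3 was not tested. In fibroblast-like cells 1 of 13 rose, Cxcl12 (0.38; median 0.22, where 8.61% of all genes were called higher).

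Of 20 further receptors, Cxcr4, the receptor of Cxcl12, rose in T cell-like (2.38), NK/innate lymphoid-like (1.72), macrophage-like (2.37) and endothelial-like cells (1.11). In T cell-like cells Ccr2 rose as well (0.97) and Ccr10 fell (-1.90), so 2 of 10 tested receptors rose and 1 fell (median 0.49), a share near the 24.8% of all genes called. In NK/innate lymphoid-like cells 2 of 5 rose, Cxcr4 and Ccrl2 (0.63; median 0.23), where 17.4% of all genes were called higher.

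Interferon response genes, whose known inducers also drive Cxcl9 and Cxcl10, were mixed. In NK/innate lymphoid-like cells 8 of 26 tested rose and 3 fell (median 0.25), where 44.1% of all genes were called, 17.4% higher and 26.7% lower. They were led by H2-Ab1, an MHC class II chain (-1.11), the antiviral enzyme gene Rsad2 (1.06) and Irgm2 (-1.04). In T cell-like cells 3 of 26 rose and 3 fell (median 0.41), near the 24.8% of all genes called there, led by H2-Ab1 (-1.81), Cd274 (-1.13) and Irgm2 (-1.12). Macrophage-like cells had 0 of 26 higher and 3 lower, Ifit3 (-0.98), Irf7 (-0.86) and Ifit2 (-0.81), with a median of -0.05, a share like the 11.4% of all genes called lower. Immediate early genes, which tissue dissociation is known to induce, were higher for 13 of 18 in T cell-like cells (median 0.87), where 7.8% of all genes were called higher, led by Dusp1 (2.93), Ier3 (2.08) and Fos (1.56). In NK/innate lymphoid-like cells 13 of 18 were higher and 3 lower (median 0.70), where 17.4% of all genes were called higher, led by Dusp1 (2.25), Atf3 (-1.75) and Tnf (-1.72). They moved with the group in the same cells as the chemokines and receptors, and their part in those changes was not tested.

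Across 24 sums (6 classes in 4 libraries, which share depth and free RNA within a library) the levels fell into sets, given as a description. The classes were endothelial-, NK/innate lymphoid-, T cell-, fibroblast-, mural- and epithelial-like. Macrophage-like, B cell-like and unnamed cells, among them main holders of Cxcl16 and Ccr7, were left out. Pearson's r was 0.965 for Cxcr3 and Cxcr6, 0.964 for Ccl3 and Ccl4, 0.951 for Ccl3 and Ccl5 and 0.324 for Cxcl9 and Cxcl10. The gene most like Cxcr3 was Cd2 (0.987), followed by Ms4a4b and Susd3, and the gene most like Cxcr6 was Tespa1 (0.985), followed by Rhoh and Cd69. Ccl3 was most like Klra3 (0.983), Styk1 and Klra7, Ccl4 like Gzmb (0.980), Klre1 and Klrd1, and Ccl5 like Cd7 (0.992), Xcl1 and Nkg7. Cxcl16 was most like Mtch1 (0.938), Mgst1 and Apoe, and Ccr7 like Cd163l1 (0.950), Krt83 and Actn2. The values for Cxcl10 (Manf, 0.836, Atp6v0e and Il4ra) and Cxcl9 (Anapc4, 0.771, Tm2d2 and Thsd7a) were lower.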

How the data were processed

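The authors deposited 4 matrices of UMI counts per gene and cell. Per the file headers they were made with Cell Ranger 6.0.1 (deligated) and 7.0.0 (homeostatic), and the submitters' processing notes name mm10 and Seurat. Cells with at least 300 genes and at most 10% mitochondrial UMIs were kept, and doublets were scored and removed at 0.8% per 1000 cells. Clustering used 3000 variable genes without the 9 described, 30 components, 20 neighbours and Leiden resolution 1.0 (finer: 2.0; leidenalg 0.10.2). A T cell-like cluster also needed Cd3d, Cd3e and Cd3g each in 50% of its cells, a rule added after the clusters were seen. Counts were summed per library and class (at least 50 cells in each library) and tested with edgeR 4.0.16 (quasi-likelihood, TMM, filterByExpr) over all genes, with no replicate block. DESeq2 1.42.0 was an alternative. The minimum was set on the main classes and did not hold in every refit. Epithelial-like cells in D1 numbered 24 with the stricter filter and 45 at the finer clustering. They numbered 32 there with doublets kept, 30 with the 9 genes in the clustering and 31 on thinned sums. Mural-like cells in H2 numbered 47 with the stricter filter. The fits were tested on simulated data, where false calls were more frequent than the threshold's nominal rate except in macrophage-like cells and for the difference between lymphoid classes, so calls just under it are weak, and where smaller changes were often missed. Named genes are the 9 members, for each list the 3 called genes with the largest change, and for each member the 3 genes with the highest correlation over sums (mean CPM of at least 5, pseudocount 1). The members and lists were chosen with earlier results of these data known. Windows come from RefSeq.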

Additional observations from a re-analysis of the deposited data

Results flagged for a closer look

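The change of Ccl3 differed between the lymphoid classes. The log2 change in T cell-like cells minus that in NK/innate lymphoid-like cells was -0.85 (edgeR adjusted p = 0.0162), with Ccl3 at 39.0 and 69.5 CPM in D1 and D2 against 103 and 120.3 CPM in H1 and H2 for the T cell-like sums, and at 149.6 and 254 against 207 and 223 CPM for the NK/innate lymphoid-like sums. It was not called without H1 (adjusted p = 0.170), without H2 (0.354) or in DESeq2 (0.190), and was 0.49 at the finer clustering.

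The same difference for Ccl5 was -0.33 (edgeR adjusted p = 0.0205), with a smaller rise in T cell-like than in NK/innate lymphoid-like cells. It was not called without H1 (-0.26, adjusted p = 0.420), without H2 (-0.36, adjusted p = 0.163) or in DESeq2, and was -0.53 at the finer clustering (adjusted p = 0.000306).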

How the results depend on the processing

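In 520 refits of single genes the direction and the state, called or not called, were kept, so many of these were never called. A further 80 gained a call, 44 lost one and 54 changed sign, whether called or not. Fits with a library left out are among these refits. Cxcr3 in macrophage-like and Cxcl16 in epithelial-like cells were not counted. For the results below the cause was not tested. The number of genes called in T cell-like cells (3) was 1 under the Cd3 and Ncr1 rule and 5 without a count filter, with the replicate block and with the block crossed. In endothelial-like cells (1) it was 0 with doublets kept, with the intron trend removed and with a stricter cell filter, and 4 with the crossed block. In epithelial-like cells (2) it was 0 with the stricter filter and 1 on thinned sums. These settings left 24 and 31 such cells in D1, under the minimum set for that class. In fibroblast-like cells (0) it was 1 with doublets kept and 3 without a count filter and with either block. In mural-like cells (0) it was 1 under the same 4 settings. In macrophage-like cells (4) it was 1 in DESeq2 and 2 on thinned sums, and for the difference between lymphoid classes (2) it was 0 in DESeq2. Same-numbered libraries did not vary together (r from -0.17 to 0.03), so the replicate block shows no pairing; with either block Cxcl10 was called in T cell-like, NK/innate lymphoid-like and fibroblast-like cells.

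Signs changed as follows. At the finer clustering T cell-like Cxcr3 was -0.10, Ccl3 0.40 and Ccl4 1.13, the differences between lymphoid classes were 0.49 for Ccl3 and 0.89 for Ccl4, and macrophage-like Ccl3 was -1.06 and Ccl4 -2.23. With doublets kept T cell-like Ccl3 was 0.37 and Ccl4 1.01, NK/innate lymphoid-like Ccl3 0.20 and endothelial-like Cxcl9 0.25. With the stricter filter T cell-like Ccl3 was 0.51 and Ccl4 1.32, endothelial-like Cxcl9 0.23 and Ccl4 over all cells -0.015. With the intron trend removed T cell-like Cxcr3 was -0.088, NK/innate lymphoid-like Ccl4 -0.032 and endothelial-like Cxcl10 -0.062. Without a count filter NK/innate lymphoid-like Ccl3 was 0.032 and endothelial-like Cxcl9 0.0037. Endothelial-like Cxcl9 was 0.35 on thinned sums. T cell-like Ccl4 was 0.70 under the Cd3 and Ncr1 rule. With the replicate block Ccl4 over all cells was -0.14 and endothelial-like Cxcl10 -0.13, and with the crossed block -0.14 and -0.063. Without epithelial-like, erythroid-like and unnamed cells Ccl4 was -0.11. With the 9 genes in the clustering macrophage-like Cxcl9 was 3.23 and Cxcl10 0.12. T cell-like against NK/innate lymphoid-like Ccl5 was 0.0026 in DESeq2.

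Leaving out each library in turn gave 0 to 5 called genes in T cell-like cells, 4 to 8 over all cells, 0 to 7 in endothelial-like, 0 to 2 in epithelial-like, 0 to 4 in fibroblast-like, 2 to 6 in macrophage-like and 0 to 1 in mural-like cells, and 0 to 4 for the difference between lymphoid classes. The NK/innate lymphoid-like share stayed between 1.21 and 1.58. Ranges that cross 0 were -0.42 to 0.30 for Ccl3 and -0.22 to 0.65 for Ccl4 in NK/innate lymphoid-like cells. Over all cells they were -0.91 to 0.39 for Ccl3, -0.82 to 0.56 for Ccl4, -1.16 to 0.46 for Cxcl10 and -1.02 to 0.043 for Cxcl9. In endothelial-like cells they were -0.28 to 3.50 for Ccl4, -2.05 to 1.03 for Cxcl10 and -1.73 to 0.71 for Cxcl9. In fibroblast-like cells they were -0.43 to 3.32 for Ccl5 and -6.63 to 1.00 for Cxcl9. Between T cell-like and NK/innate lymphoid-like cells they were -0.081 to 0.083 for Ccl5 and -0.54 to 0.27 for Cxcl10, and for the difference of changes -0.11 to 1.16 for Cxcl10, -0.062 to 0.98 for Cxcl16 and -0.18 to 0.33 for Cxcr6. Macrophage-like Cxcl9 rests on 3 and 1 UMIs in D1 and D2, so its level there is imprecise.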
